A study of Hordeum vulgare with 12 samples.

Results

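A set of 4 WUSCHEL-related homeobox (WOX) genes of barley is described here across a time course of crown-root induction. They are a list of 4 gene identifiers, out of 17 genes that the deposited annotation describes as WUSCHEL-related and 63658 genes in all. The list was chosen by family, by listed homologs and with the genes' counts in all 12 libraries and their fold changes against 0 h in view, so the time course of these 4 genes is given as a description, without a p-value. The identifiers are HORVU.MOREX.r2.2HG0091310.1, HORVU.MOREX.r2.4HG0315980.1, HORVU.MOREX.r2.3HG0251360.1 and HORVU.MOREX.r2.2HG0170340.1, and genes are called below by the middle part of such a name. The identifiers follow the cultivar Morex, while the plants were Golden Promise.

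WOX proteins are plant transcription factors with a homeodomain that keep groups of stem cells active or start new organs. In rice, WOX11 is needed for crown roots, the roots that grow from the base of the shoot in cereals, to emerge and grow. In Arabidopsis, WOX11 and WOX12 act when roots are formed from cells outside the root system, and WOX5 is expressed in the quiescent centre, the organizing cells of the root tip. WOX4 acts in the vascular cambium of Arabidopsis.

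RNA came from crowns of barley (Hordeum vulgare, cultivar Golden Promise), the piece of 2 mm between roots and stem, with 5 crowns pooled in each library. All seedlings were first kept on 50 µM NPA, which blocks the transport of auxin between cells. The 0 h crowns were taken before the solution was changed, and the 30 min, 1 h and 3 h crowns after that time on 50 µM 1-NAA, a synthetic auxin, with 3 libraries described as independent biological replicates at each of the 4 times. No crowns kept on NPA were sampled at the later times, so effects of 1-NAA, of NPA withdrawal, of the solution change itself and of the hour of sampling cannot be told apart. The libraries held 16093892 to 34019480 reads assigned to genes. The share of reads assigned was 56.0 to 66.4% in 3 libraries, those with replicate number 1 at 0 h, 30 min and 3 h, and 71.9 to 78.4% in the other 9 libraries.

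The gene 2HG0091310 lies on the plus strand of chromosome 2H (32750309 to 32752599), and the counted length of 798 bases is its coding length. Its first listed rice homolog is WOX11 and its first listed Arabidopsis homolog is WOX12. The gene 4HG0315980 (4H, 416101329 to 416103841, plus strand, coding length 921 bases) has rice WOX6 listed first and rice WOX11 second, with Arabidopsis WOX12 first. The gene 3HG0251360 (3H, 552764898 to 552765655, plus strand, coding length 630 bases) has Arabidopsis WOX5 listed first and WOX7 second, and no rice gene in either rice column. The gene 2HG0170340 (2H, 645360995 to 645362127, plus strand, coding length 705 bases) has WOX4 as its first listed rice and maize homolog, so it is a homolog of neither WOX11 nor WOX5 in that table. Another gene with rice WOX11 among its homologs, 3HG0191290 (rice WOX10 first, WOX11 second), had 10 reads over 3 of the 12 libraries and was not tested. The coordinates are those of the deposited table, whose genome build is not given in the sources used here.

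The WOX11 homolog 2HG0091310 had the widest range of the family, from 4.19 to 316 CPM over the 12 libraries, where CPM is the read count scaled to one common library size after TMM normalization. Its level was 7.72, 4.19 and 7.75 CPM in replicates 1, 2 and 3 at 0 h and 7.26, 7.34 and 11.7 CPM at 30 min. It was 40.3, 21.7 and 34.8 CPM at 1 h and 176, 266 and 316 CPM at 3 h. The 30 min libraries overlapped those of 0 h, all 3 libraries of 1 h stood above all 6 earlier ones, and all 3 of 3 h stood above all 9 others. The means were 6.55 ± 2.05, 8.76 ± 2.52, 32.3 ± 9.58 and 253 ± 71.0 CPM at 0 h, 30 min, 1 h and 3 h (SD, n = 3 each). The log2 fold change against 0 h was 0.43 ± 0.32 at 30 min, 2.30 ± 0.33 at 1 h and 5.27 ± 0.37 at 3 h (edgeR estimate ± SE). At 3 h this was the 19th highest log2 fold change of 24920 genes, and the mean level per length placed 777th, against 12865th at 0 h.

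The steps between successive times were unequal for this gene. The log2 fold change was 1.88 ± 0.32 for 1 h against 30 min and 2.97 ± 0.33 for 3 h against 1 h. The second of these intervals is the longer, so the values are not rates. Between libraries of the same replicate number, the level at 3 h was 22.8, 63.6 and 40.8 times that at 0 h for replicates 1, 2 and 3. The widest ratio, in replicate 2, belongs to the lowest 0 h library. At 1 h the same ratios were 5.22, 5.17 and 4.48, closer to each other than at 3 h. In bulk RNA, more cells with the transcript and more transcript per cell cannot be told apart, here or in the results that follow.

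**Figure D1:**
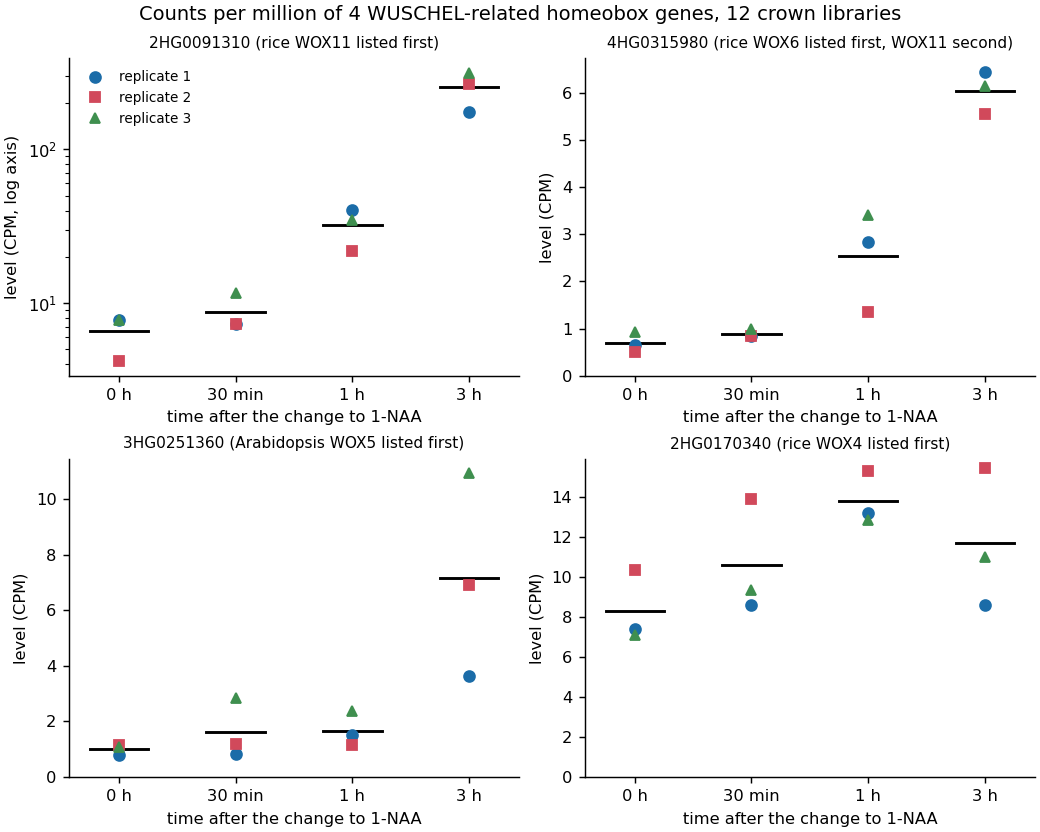
Level in CPM (read counts scaled to library size) of the 4 genes in each of the 12 crown libraries, by time after the change to 1-NAA, with 1 point per library, symbols for the replicate number and a bar for the mean of 3; the axis of 2HG0091310 is logarithmic and the others start at 0. The 3 h libraries of 2HG0091310 (176 to 316 CPM), 4HG0315980 (5.56 to 6.44 CPM) and 3HG0251360 (3.63 to 10.9 CPM) lie above all earlier libraries, and those of 2HG0170340 (8.56 to 15.5 CPM) overlap the others.

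The second gene with rice WOX11 among its homologs, 4HG0315980, followed the same order of times at a far lower level. It had 10, 13 and 33 reads at 0 h, or 0.644, 0.495 and 0.934 CPM in replicates 1 to 3. At 30 min it stood at 0.832, 0.849 and 0.991 CPM. It had 2.84, 1.35 and 3.42 CPM at 1 h and 6.44, 5.56 and 6.15 CPM at 3 h. Again 30 min overlapped 0 h, 1 h lay above both, and 3 h lay above all other libraries. The 3 h libraries were also close to each other, with a mean of 6.05 ± 0.451 CPM (SD, n = 3), against 0.691 ± 0.223 CPM at 0 h (n = 3). The log2 fold change against 0 h was 0.35 ± 0.37 at 30 min, 1.85 ± 0.35 at 1 h and 3.10 ± 0.36 at 3 h (SE), the last being the 85th highest of all tested genes. Over the 12 libraries its log2 CPM had a Pearson correlation of 0.971 with that of 2HG0091310, a description of libraries that share times and replicate numbers.

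These genes did not keep one ratio. Per coding length, 2HG0091310 stood at 9.58 to 13.8 times the level of 4HG0315980 over the 3 libraries of 0 h and at 31.6, 55.4 and 59.4 times in replicates 1 to 3 of 3 h. At 30 min the ratio was between 9.98 and 13.6 and at 1 h between 11.7 and 18.5. The ratio at 3 h was thus above the range of every earlier library, in all 3 libraries.

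The gene with Arabidopsis WOX5 as first homolog, 3HG0251360, was high at 3 h and not at 1 h. Its level was 0.772, 1.14 and 1.08 CPM in replicates 1 to 3 at 0 h and 0.832, 1.19 and 2.82 CPM at 30 min. It was 1.49, 1.13 and 2.37 CPM at 1 h and 3.63, 6.89 and 10.9 CPM at 3 h. The libraries of 0 h, 30 min and 1 h overlapped each other, and those of 3 h lay above all 9. Replicate 3 was the highest library at 30 min, 1 h and 3 h, and the spread at 3 h was wide, with a mean of 7.15 ± 3.66 CPM (SD, n = 3), against 0.997 ± 0.197 CPM at 0 h (n = 3). The log2 fold change against 0 h was 0.69 ± 0.51 at 30 min, 0.72 ± 0.51 at 1 h and 2.82 ± 0.52 at 3 h (SE). The 30 min value rests on replicate 3, since it was 0.0108 without that library.

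The WOX4 homolog 2HG0170340 changed least of the 4 in the comparison of 3 h with 0 h. It had 7.40, 10.4 and 7.07 CPM in replicates 1 to 3 at 0 h and 8.59, 13.9 and 9.34 CPM at 30 min. It had 13.2, 15.3 and 12.8 CPM at 1 h and 8.56, 15.5 and 11.0 CPM at 3 h. All 3 libraries of 1 h lay above the 3 of 0 h, while those of 30 min and 3 h overlapped them, and replicate 2 was the highest library at every time. The log2 fold change against 0 h was 0.36 ± 0.25 at 30 min, 0.73 ± 0.25 at 1 h and 0.49 ± 0.25 at 3 h (SE). Its correlation over the 12 libraries was 0.353 with 2HG0091310, 0.354 with 4HG0315980 and 0.294 with 3HG0251360, against 0.888 between 2HG0091310 and 3HG0251360. Between libraries of the same replicate number its level at 1 h was 1.78, 1.48 and 1.81 times that at 0 h.

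Among all 24920 genes tested, edgeR's quasi-likelihood test (adjusted p under 0.05, adjusted by Benjamini-Hochberg over all genes) called 1.68% higher at 3 h against 0 h, and 3 of the 4 genes, 2HG0091310, 4HG0315980 and 3HG0251360, were among them. It called 0.799% lower, which makes 617 genes in both directions, against 1269 once replicate number was added as a block. At 1 h against 0 h the test called 0.0963% of genes higher, with 2HG0091310 the only one of the 4, and at 30 min 0.00401%, with none of the 4. All 3 libraries stood above all 3 of 0 h for 3 of the 4 genes at 3 h (6.66% of all tested genes) and for 3 of the 4 at 1 h (7.16%). At 30 min this held for 0 of the 4 (4.68%). Between successive times, all 3 libraries stood above the earlier ones for 2 of the 4 at 1 h against 30 min (4.37%), 2HG0091310 and 4HG0315980, and for all but 2HG0170340 at 3 h against 1 h (10.7%). Since these comparisons entered the choice of the 4 genes, nothing is read from their counts. The authors' deposited table gives log2 fold changes for 3 h against 0 h of 5.28, 3.10, 2.84 and 0.50 for 2HG0091310, 4HG0315980, 3HG0251360 and 2HG0170340.

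Per coding length, as CPM divided by the coding length in kilobases (RPKM), the order of the 4 genes changed over the time course. At 0 h 2HG0170340 was first with 11.7 ± 2.56 RPKM, followed by 2HG0091310 with 8.21 ± 2.57, 3HG0251360 with 1.58 ± 0.313 and 4HG0315980 with 0.750 ± 0.242 RPKM (SD, n = 3 each). The first pair differed by less than the sum of their SDs. At 1 h 2HG0091310 was first with 40.4 ± 12.01 RPKM, then 2HG0170340 with 19.5 ± 1.90 RPKM, while 4HG0315980 with 2.75 ± 1.16 and 3HG0251360 with 2.64 ± 1.01 RPKM did not differ beyond their spread. At 3 h 2HG0091310 stood at 317 ± 88.9 RPKM. Behind it came 2HG0170340 with 16.5 ± 4.96, 3HG0251360 with 11.4 ± 5.80 and 4HG0315980 with 6.57 ± 0.489 RPKM, and neither neighbouring pair of these differed beyond its spread.

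The 17 WUSCHEL-related genes together summed to 62.5 ± 3.53, 67.2 ± 7.76, 105 ± 12.5 and 394 ± 100.4 RPKM at 0 h, 30 min, 1 h and 3 h (SD, n = 3 each). Of this sum 2HG0091310 made up 13.0 ± 3.56%, 16.4 ± 4.36%, 38.1 ± 7.41% and 79.9 ± 2.38%. The largest part at 0 h belonged to 3HG0247620, a gene with Arabidopsis WOX13 as first homolog, at 37.3 ± 4.34 RPKM, and it stood at 41.0 ± 3.96 RPKM at 3 h. The WOX family of these crowns thus held mostly transcripts of the WOX13 homolog before the change of solution and mostly those of the WOX11 homolog at 3 h.

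**Figure D2:**
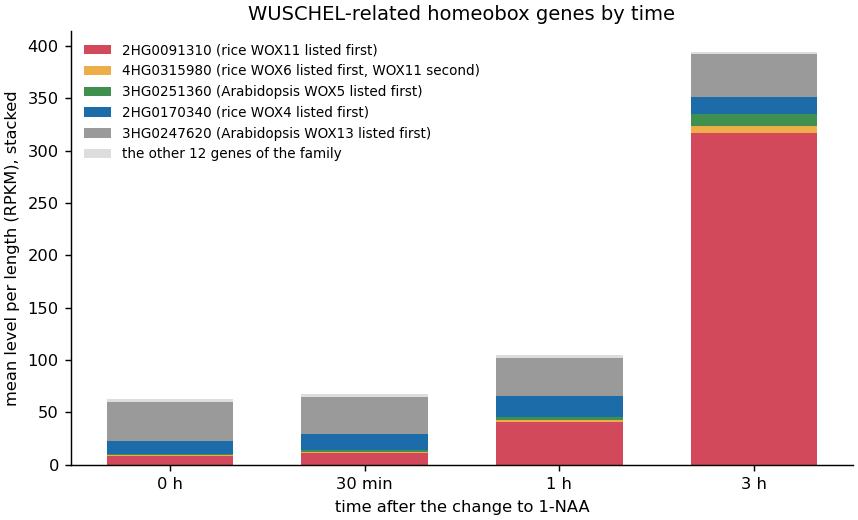
Mean level per coding length (RPKM, 3 libraries per time) of the WUSCHEL-related homeobox genes, stacked by gene, against time after the change to 1-NAA. The share of 2HG0091310 is 13.0% at 0 h and 79.9% at 3 h, and the WOX13 homolog 3HG0247620 stays between 35.1 and 41.0 RPKM.

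Of the 13 other genes of the family, 4 had enough reads to be tested, 5 had between 1 and 25 reads over all libraries and 4 had none. None of the 4 tested passed edgeR in any of the 3 comparisons with 0 h, none had an unadjusted p under 0.05, and DESeq2 called none. The WOX13 homolog 3HG0247620 had a log2 fold change of 0.14 ± 0.14 at 3 h (SE, edgeR adjusted p = 0.964). The gene 1HG0008140, with rice WOX2 as first homolog, had 0.516 ± 0.341 CPM at 3 h and 1.19 ± 0.513 CPM at 0 h (SD, n = 3 each), with a log2 fold change of -1.18 ± 0.56 (edgeR adjusted p = 0.52). The genes 3HG0230800 and 5HG0386660 lay at -0.24 ± 0.31 and 0.19 ± 0.61 (both adjusted p = 0.999 by edgeR). At 3 h the 4 described genes had log2 fold changes between 0.49 and 5.27, and the other 4 tested between -1.18 and 0.19, beside a median of -0.00425 over all tested genes. Since the 4 described genes were chosen with their fold changes against 0 h in view, nothing is read from this difference. Among the 5 with few reads were 2HG0167060, with Arabidopsis WUSCHEL as first homolog, which had 3 reads in all, and 3HG0252620, which had 1.

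**Figure D3:**
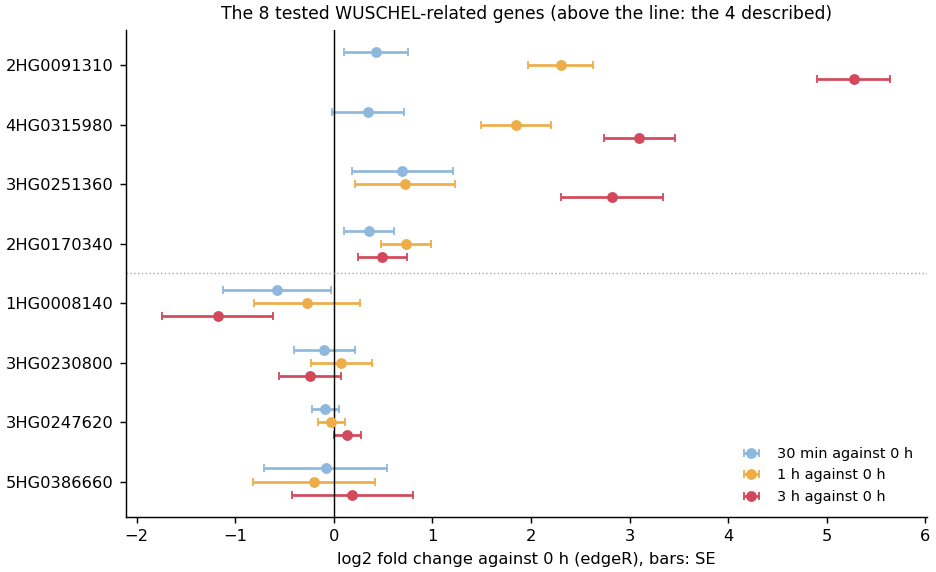
Log2 fold change against 0 h of the 8 tested WUSCHEL-related genes at 30 min, 1 h and 3 h (edgeR, points with SE as bars), the 4 described genes above the dotted line and the other 4 below it. At 3 h the values above the line run from 0.49 to 5.27 and those below it from -1.18 to 0.19. The 4 genes above the line were chosen with these fold changes in view.

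The genes whose log2 CPM over the 12 libraries was most like that of a described gene were taken from 21514 described genes with a mean of at least 1 CPM, by Pearson correlation. For 2HG0091310 these were the Aux/IAA genes 1HG0021490 (0.989) and 3HG0199050 (0.985), both with Arabidopsis IAA17 as first homolog, repressors that auxin causes to be degraded. They were followed by the auxin canalization gene 3HG0206890 (0.980), the BAG chaperone regulator gene 2HG0145890 (0.977) and the lysine/histidine transporter gene 2HG0155730 (0.976). The level of 1HG0021490 was 23.0, 33.7, 74.8 and 249 CPM at 0 h, 30 min, 1 h and 3 h, a course with a smaller range than that of 2HG0091310. For 4HG0315980 the same Aux/IAA gene came first (0.975) and 2HG0091310 second (0.971), ahead of the SAUR gene 5HG0417400 (0.967), the F-box gene 3HG0246100 (0.957) and the homeobox-leucine zipper gene 7HG0537950 (0.955).

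The neighbours of the other pair were of other kinds. Those of 3HG0251360 were the antiporter gene 5HG0422110 (0.970), the glycosyltransferase gene 5HG0430540 (0.964), the zinc finger gene 3HG0247030 (0.961), the cytochrome P450 gene 1HG0067430 (0.959) and the dehydrogenase gene 1HG0004660 (0.958). The P450 gene, for example, had means of 12.1, 19.4, 22.9 and 91.3 CPM at the 4 times. The highest values for 2HG0170340 were lower, from 0.896 for the hydroxycinnamoyltransferase gene 5HG0400110 to 0.906 for the BTB/POZ gene 7HG0611400. Between these lay the HSP20-like gene 5HG0353170 (0.906), the NHL repeat gene 6HG0507580 (0.904) and the protein kinase gene 6HG0457050 (0.898). Libraries of one time share their treatment, so such values measure likeness of course and carry no test.

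Families that act with WOX proteins in other plants were read beside the 4 genes, by words in the gene descriptions and with edgeR's call over all genes. LOB domain proteins are transcription factors of lateral organ and root formation, and LBD16 and LBD29 act downstream of WOX11 in Arabidopsis. At 3 h against 0 h edgeR called 7 of 22 tested LOB domain genes higher (1.68% of all tested genes) and none lower. DESeq2 also called 7 higher (2.71% of all), as did the replicate block (2.96%), and 7 had an unadjusted p under 0.05 (10.4%). At 1 h edgeR called none (0.0963% of all higher), 4 had an unadjusted p under 0.05 (5.75%), DESeq2 called 1 higher (0.421%) and the replicate block called 2 higher (0.249%). The LBD29 homolog 4HG0339920 rose to 120 ± 23.1 CPM at 3 h, against 14.9 ± 4.24 CPM at 0 h (SD, n = 3 each), a log2 fold change of 3.02 ± 0.26 (edgeR adjusted p = 0.000107). At 30 min and 1 h its log2 fold changes against 0 h were 0.62 ± 0.25 and 1.46 ± 0.25 (SE), neither called by edgeR. The LBD16 homolog 6HG0523370 rose to 4.44 ± 0.496 CPM at 3 h, against 0.428 ± 0.105 CPM at 0 h (log2 fold change 3.40 ± 0.39, edgeR adjusted p = 0.000595). At 30 min and 1 h its log2 fold changes were 1.15 ± 0.40 and 1.36 ± 0.39 (SE), neither called by edgeR. Whether these LOB domain genes rose before or after the WOX genes was not tested. Of the 7, 2HG0106810 and 4HG0326090 lost the call in 12 and 5 of 18 alternatives and the other 5 in none.

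CLE genes encode small peptide signals, some of which restrict WOX expression in Arabidopsis meristems. Of 12 tested CLE genes 1 rose at 3 h (1.68% of all tested genes), 6HG0524660, described as CLE25, with 16.4 ± 1.22 CPM at 3 h and 2.11 ± 0.167 CPM at 0 h (SD, n = 3 each; log2 fold change 2.95 ± 0.28, edgeR adjusted p = 0.000154). The second by p, 4HG0279530, had a log2 fold change of -0.96 ± 0.38 (edgeR adjusted p = 0.361), and the median of the 12 was -0.15. The only gene described as CLAVATA1, a receptor of such peptides, had too few reads to be tested.

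Type A response regulators are cytokinin-induced genes, one of which WOX11 binds and represses in rice. The list read here is not limited to type A and also holds clock-type members. Of its 21 tested response regulator genes, 2 fell at 3 h (edgeR, 0.799% of all tested genes) and none rose. DESeq2 called 5 lower (1.75% of all tested genes), as did the replicate block (2.13%), and 7 had an unadjusted p under 0.05 in either direction (10.4%). The gene 1HG0053020 fell to 7.88 ± 1.37 CPM at 3 h, against 16.7 ± 1.20 CPM at 0 h (SD, n = 3 each). Its log2 fold change was -1.08 ± 0.16 (edgeR adjusted p = 0.00331). No first Arabidopsis or rice homolog is described for it, so its type is not known here. The gene 7HG0546700, whose first Arabidopsis homolog ARR12 is a type B regulator, a transcription factor of the cytokinin response, fell to 0.280 ± 0.119 CPM, against 1.14 ± 0.367 CPM at 0 h (log2 fold change -1.99 ± 0.42, edgeR adjusted p = 0.0301), and lost the call in 7 of 18 alternatives.

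**Figure D4:**
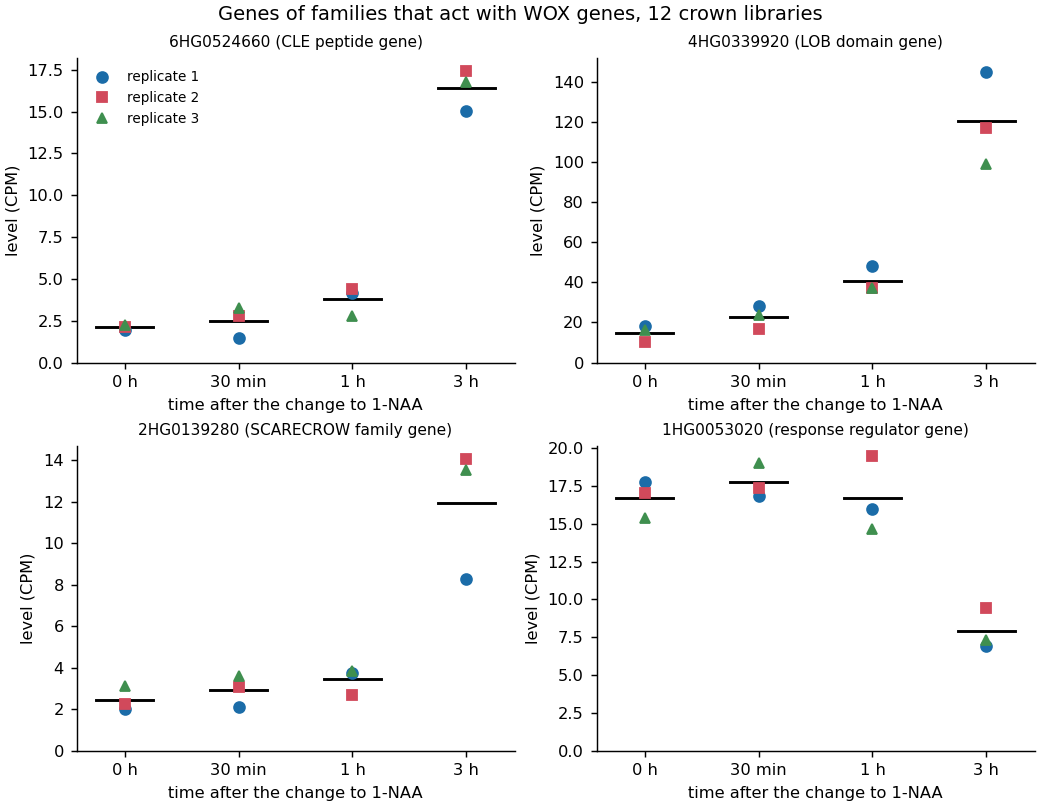
Level in CPM (read counts scaled to library size) in each of the 12 crown libraries of a CLE peptide, a LOB domain, a SCARECROW family and a response regulator gene, by time after the change to 1-NAA, with 1 point per library, symbols for the replicate number and a bar for the mean of 3. The first 3 are higher in all 3 h libraries than in any earlier one, and the response regulator gene 1HG0053020 is lower in all of them.

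SCARECROW patterns the ground tissue and the stem cell niche of the Arabidopsis root. The list read here is broader, 32 genes described as Scarecrow family or SCARECROW-like, and none is described as SHORT-ROOT. Of its 21 tested genes 1 rose at 3 h (1.68% of all tested genes), 2HG0139280, with 11.96 ± 3.20 CPM at 3 h and 2.46 ± 0.602 CPM at 0 h (SD, n = 3 each; log2 fold change 2.27 ± 0.29, edgeR adjusted p = 0.00117), and the replicate block called 3 higher (2.96% of all). The gene with rice SCARECROW 2 as first homolog, 5HG0383850, had a log2 fold change of 0.69 ± 0.19 (edgeR adjusted p = 0.113) and passed with the replicate block (edgeR adjusted p = 0.0332) and by DESeq2 (adjusted p = 0.0302). The co-repressor TOPLESS, which WOX5 recruits in Arabidopsis, and the GCN5 and ADA2 histone acetylation subunits, which WOX11 recruits in rice, gave 0 calls by edgeR among 7 and 2 tested genes at any time, and none by DESeq2. None had an unadjusted p under 0.05 by edgeR, against 4.39%, 5.75% and 10.4% of all tested genes at 30 min, 1 h and 3 h. With so few tested genes, nothing is read from the absence of calls. The TOPLESS-related gene 3HG0210350 had a log2 fold change of -0.28 ± 0.13 at 3 h (edgeR adjusted p = 0.53), and 4HG0325410 had 0.29 ± 0.15 at 1 h (edgeR adjusted p = 0.891). The GCN5 gene 1HG0027750 had a log2 fold change of -0.20 ± 0.15 at 1 h (edgeR adjusted p = 0.926), and the ADA2 gene 5HG0424400 averaged 48.8 ± 5.97 CPM at 3 h and 51.6 ± 6.603 CPM at 0 h (SD, n = 3 each). The 21 tested AP2-like genes, of a broad family that holds the PLETHORA factors of root stem cells, also gave 0 calls by edgeR and by DESeq2. By edgeR, 2 of the 21 had an unadjusted p under 0.05 at 3 h (10.4% of all tested genes). Lowest in p were 4HG0295920, with a log2 fold change of -1.22 ± 0.37 at 3 h (edgeR adjusted p = 0.158), and 5HG0383420, with -0.60 ± 0.21 (edgeR adjusted p = 0.25). The median log2 fold change at 3 h was 0.25 over the tested LOB domain genes, -0.0579 over the response regulators, 0.00958 over the SCARECROW list, -0.0112 over the TOPLESS list, -0.0331 over GCN5 and ADA2 and 0.0576 over the AP2-like list, against -0.00425 over all tested genes.

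Lists meant to mark tissues, found by words in the gene descriptions, were summed beside these results. The 35 chlorophyll a-b binding genes of green tissue summed to 2563 to 2933 CPM at 3 h and 4103 to 5249 CPM at 0 h, without overlap. At 30 min the sum was 3373 to 4017 CPM, already below all 0 h libraries, and at 1 h it was 3316 to 4379 CPM, overlapping them. Whether this course of the sum has a part in the levels of the WOX genes was not tested. The 15 genes matched by the word knotted, 13 KNOX homeobox genes of the kind active in shoot meristems and 2 genes for knotted 1-binding proteins, summed to 201 to 279 CPM at 3 h and 253 to 281 CPM at 0 h. The 44 genes of the CASP list, 43 described as CASP-like, a broad family not limited to the endodermis, and 1 as Protein CASP, summed to 449 to 556 CPM at 3 h and 459 to 537 CPM at 0 h. The 40 laccase genes, some of which act in lignification of xylem, lay at 152 to 210 CPM at 3 h and 160 to 238 CPM at 0 h. The 15 genes described as ROOT HAIR DEFECTIVE 3, a GTP-binding protein, lay at 105 to 119 CPM at 3 h and 95.8 to 120 CPM at 0 h. The knotted, CASP, laccase and ROOT HAIR DEFECTIVE 3 lists hold family names rather than defining markers, so the amount of meristem, endodermis, xylem or root hair was not measured by them. The 4 grain protein genes never passed 0.506 CPM in sum.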

How the data were processed

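Raw read counts per gene, deposited by the authors without normalization, were used for 12 libraries and 63658 genes. HISAT2 2.0.5, Subread 1.5.2, SAMtools and bcl2fastq are listed, per the submitters' processing notes. The sources used here do not give the build, the strandedness or the treatment of multi-mapped reads, so reads shared by similar genes could be split. Of the gene lengths 98.9% are multiples of 3, so reads in untranslated regions were not counted for most genes. Descriptions, homologs and log2 fold changes were taken from the authors' deposited table, whose test is not stated.

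Genes kept by filterByExpr (minimum count 10, minimum total 15), 24920 in all, were scaled by TMM and tested with edgeR 4.0.16 in R 4.3.3, in 1 model of the 4 times with 8 residual degrees of freedom, and called at a Benjamini-Hochberg adjusted p under 0.05. The SE of a log2 fold change was derived from the test, as its absolute value divided by the square root of the F statistic. Log2 CPM were computed with 2 as prior count. A count of 3 equals 0.0849 to 0.193 CPM depending on the library, a floor for counting error alone. DESeq2 1.42.0, RLE scaling, no filter, fits of 2 times, a replicate block, leaving out libraries and, added after the data were seen, leaving out the 3 libraries of low assigned share were alternatives. The procedure was also run on simulated libraries that shared no replicate-number effect, unlike the real ones, so nothing is read from that run. Figures were drawn with matplotlib 3.10.9.

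The members and gene lists were chosen with earlier results of these data known. Named are the 4 genes, the other tested WOX genes, in each list the 2 genes lowest in p, and the 5 genes most correlated with each member; other named genes were chosen after their values were seen. P-values set a difference between times against the spread between these pools of crowns. Replicates were not duplicates (chi-square per degree of freedom 16.1 to 88.3).

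Replicate numbers come from the sample titles. The residuals of libraries with the same number correlated at 0.45 to 0.641 for 30 min and 0 h, 0.203 to 0.595 for 3 h and 0 h, 0.251 to 0.586 for 1 h and 30 min and 0.139 to 0.398 for 3 h and 1 h. For 1 h and 0 h they correlated at 0.0958 to 0.508, where replicate 2 was just under the limit of 0.1 set for every pair. The numbers were read as pairing libraries in the other comparisons, and in this one only as a description. The main edgeR test used no pairing in any comparison, and the replicate block was an alternative only.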

Additional observations from a re-analysis of the deposited data

How the results depend on the processing

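All 216 log2 fold changes of the 4 genes under the 18 alternatives kept their sign, and 215 moved by less than 1 SD between replicates. The counts of called genes moved more. At 3 h against 0 h the count of 617 was 1112 by DESeq2, 377 with the 2 times alone, 1269 with the replicate block and 374 to 627 when 1 library was left out, the lowest with replicate 3 of 3 h (374) or of 0 h (375) left out. At 1 h the 24 calls became 121 by DESeq2, 8 with the 2 times alone, 66 with the replicate block (where 1 of the 3 same-number correlations, 0.0958, was under 0.1) and 3 to 27 when 1 library was left out. At 30 min the 1 call became 96 by DESeq2, 2 with no filter, 3 with the replicate block, 0 without the libraries of low assigned share and 0 to 3 when 1 library was left out. The count of called genes in the lists of families that act with WOX proteins in other plants stayed at 8 to 16 (11 as reported). That of other WOX genes stayed at 0. Outside the 4 described genes, every gene named in the text as called by edgeR at 3 h kept its call with the replicate block. With the block 5HG0383850 gained a call. The block also raised the counts of called LOB domain genes at 1 h and of response regulator and SCARECROW list genes at 3 h, as given above. The calls of the 4 under the alternatives were not recorded. Some log2 fold changes of other WOX genes turned sign, and none of these passed the test. For 3HG0230800 they were 0.0604 and 0.0705 at 30 min without replicate 2 of 0 h and replicate 1 of 30 min (range -0.25 to 0.0705 over single libraries left out), and at 1 h -0.0515 without the libraries of low assigned share, -0.0496 without replicate 1 of 0 h and -0.0826 when replicate 2 of 1 h was left out (range -0.0826 to 0.24). For 3HG0247620 they were 0.0532 and 0.0257 at 1 h without replicate 3 of 0 h and of 1 h (range -0.11 to 0.0532). For 5HG0386660 they were 0.60 and 0.32 at 30 min without replicate 2 of 0 h and replicate 3 of 30 min (range -0.69 to 0.60), 0.48 and 0.0873 at 1 h without replicate 2 of 0 h and replicate 3 of 1 h (range -0.67 to 0.48), and -0.0809 and -0.0276 at 3 h without replicates 1 and 3 of 0 h (range -0.0809 to 0.86). The causes were not tested. Depth limits 5HG0386660, with 3 to 18 reads in each 0 h library, and among the 4 described genes 4HG0315980 and 3HG0251360, with 10 to 38.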
